A study of Homo sapiens with 18 samples.

Results

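NKX2-2 and SOX2 are genes for transcription factors that EWSR1-FLI1 is known to switch on in Ewing sarcoma, and the peaks of 5 lists around both were collected from A673 cells, an established Ewing sarcoma line. Peaks were taken by position alone. A peak belonged to NKX2-2 when it shared at least 1 bp with the gene (chr20:21491648-21494664, hg19) or the 100 kb on either side, and to SOX2 when it did so with chr3:181429711-181432223 or the 1 Mb on either side. This gave 12 peaks at NKX2-2 and 17 at SOX2, 29 of the 45354 peaks in all lists. All cells were untreated A673 cells grown in RPMI medium with serum, and the samples differ in the antibody used for chromatin immunoprecipitation sequencing (ChIP-seq). The labels name separate inputs for the 3 targets and do not say whether the samples were made or processed together. RING1B (an MBL antibody) and monoubiquitinated histone H2A (H2Aub1, a Cell Signalling antibody) have 2 replicates each, and EWSR1-FLI1 (an Abcam antibody) has 1 sample. The series has 18 samples, and the other 13, among them the inputs, CBX7, BMI1 and the shCTRL and shRING1B pair of conditions, were not analysed here. A673 is 1 line, so no value here speaks for other tumours. The lists give peaks and not transcripts, so the identity of the cells could not be checked against marker genes.

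EWSR1-FLI1 joins the activation part of EWSR1 to the DNA-binding part of the ETS factor FLI1. It binds single GGAA motifs and, more unusually, runs of GGAA repeats that lie far from genes and become enhancers. RING1B is the ubiquitin ligase of Polycomb repressive complex 1, and H2Aub1 is the mark it places, best known at silenced developmental genes. NKX2-2 is a homeodomain factor of the ventral neural tube and the pancreatic islet, used by pathologists as a marker of Ewing sarcoma. SOX2 is a high-mobility-group factor of pluripotent and neural progenitor cells. It lies within SOX2-OT, a long noncoding RNA gene, in the RefSeq table of GRCh38. In that table the nearest protein-coding genes are NKX2-4 and PAX1 for NKX2-2, and DNAJC19 and ATP11B for SOX2.

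Sequences before a RefSeq start of each gene are shown because no EWSR1-FLI1 peak was called near the hg19 starts used for distances. The nearest such peak lay 61892 bp from the hg19 start of NKX2-2 and 197110 bp from that of SOX2. Shown are the 250 bases before the transcription start in RefSeq (GRCh38.p14), read 5′ to 3′ in the gene's direction. GGAA or its reverse complement TTCC is in capitals. For NKX2-2 the RefSeq start is not the hg19 start, as described below. NKX2-2 is on the minus strand and SOX2 on the plus strand.
NKX2-2, chr20:21522690-21522939: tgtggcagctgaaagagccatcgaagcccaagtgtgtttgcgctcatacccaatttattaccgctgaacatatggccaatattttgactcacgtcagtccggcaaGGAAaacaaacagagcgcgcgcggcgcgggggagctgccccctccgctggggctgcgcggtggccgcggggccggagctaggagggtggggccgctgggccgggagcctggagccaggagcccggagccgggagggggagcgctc
SOX2, chr3:181711675-181711924: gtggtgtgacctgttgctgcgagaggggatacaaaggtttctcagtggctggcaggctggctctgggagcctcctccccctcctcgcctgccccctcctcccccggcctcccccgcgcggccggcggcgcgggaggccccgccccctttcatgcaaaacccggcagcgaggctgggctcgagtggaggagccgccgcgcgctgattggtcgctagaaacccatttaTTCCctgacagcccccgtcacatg
Over the whole 300-base RefSeq window, which also takes in the first 50 bases of the gene, each of these promoters held 1 such core, and the other NKX2-2 start in the table held 0. Over all 35116 promoter windows of the table the median was 3 cores, and 16.2% held at most 1. A run of 2 or more GGAA, on either strand, was in 0 of the 3 windows of these genes and in 3.67% of all windows, and a run of 3 or more was in 0.0854%. The letters say only what these windows hold. RefSeq gives NKX2-2 a length of 11673 bp in GRCh38 and starts 11673 and 1944 bp from its far end, whereas the hg19 gene used here is 3017 bp long. Neither NKX2-2 window is therefore the start from which distances were taken, and a start farther upstream would bring the upstream peaks closer. No genome of hg19 was used, so the bases under the peaks are not shown.

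At NKX2-2, EWSR1-FLI1 and RING1B met at 1 distal site upstream of the gene, and H2Aub1 lay over and around the gene itself in replicate 1, whereas the 1 peak of replicate 2 lay 4550 bp past it. The shared site was chr20:21556375-21557725, whose EWSR1-FLI1 peak (1170 bp) began 61892 bp upstream of the start. Its EWSR1-FLI1 score, the strength that the authors gave the peak on a scale they did not state, was 224.85. The RING1B score there was 360.04 in replicate 1 and 216.2 in replicate 2.

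Both RING1B replicates thus held this site, with peaks of 1197 and 1114 bp whose centres lay 19.5 bp apart. All of the 1114 bp of replicate 2 fell inside the peak of replicate 1. The EWSR1-FLI1 centre lay 167.5 bp from the RING1B centre of replicate 1 and 148 bp from that of replicate 2. Measured between midpoints of the called peaks, these offsets were larger than usual. The median over the list was 62.5 bp for the 1169 EWSR1-FLI1 peaks that touched replicate 1. It was 65.5 bp for the 1174 that touched replicate 2. Smaller offsets were found at 89.8% and 78.9% of these peaks. RING1B replicate 1 still shared 86.8% of the EWSR1-FLI1 peak at this site, and replicate 2 shared 85.0%.

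The site ranked high within each list. Its score exceeded 80.7% of the EWSR1-FLI1 list (rank 414 of 2145), 89.8% of RING1B replicate 1 (rank 263 of 2573) and 88.9% of RING1B replicate 2 (rank 438 of 3945). No H2Aub1 peak touched it, the nearest being 51778 bp away in replicate 1 and 69458 bp away in replicate 2.

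The other EWSR1-FLI1 peak at NKX2-2 had no RING1B peak in either replicate. It spanned chr20:21588429-21589431, 93765 bp upstream of the start and 30704 bp beyond the shared site, with a score of 127.54. That score exceeded 63.8% of the list and 88.7% of the 586 EWSR1-FLI1 peaks that, like it, touched none of the 4 other lists. RING1B was thus missing from the call at a site that ranked well among unaccompanied EWSR1-FLI1 peaks. A missing peak means only that the signal did not pass the authors' threshold, which cannot be told apart from low sequencing depth, since the lists hold no read counts.

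**Figure D1:**
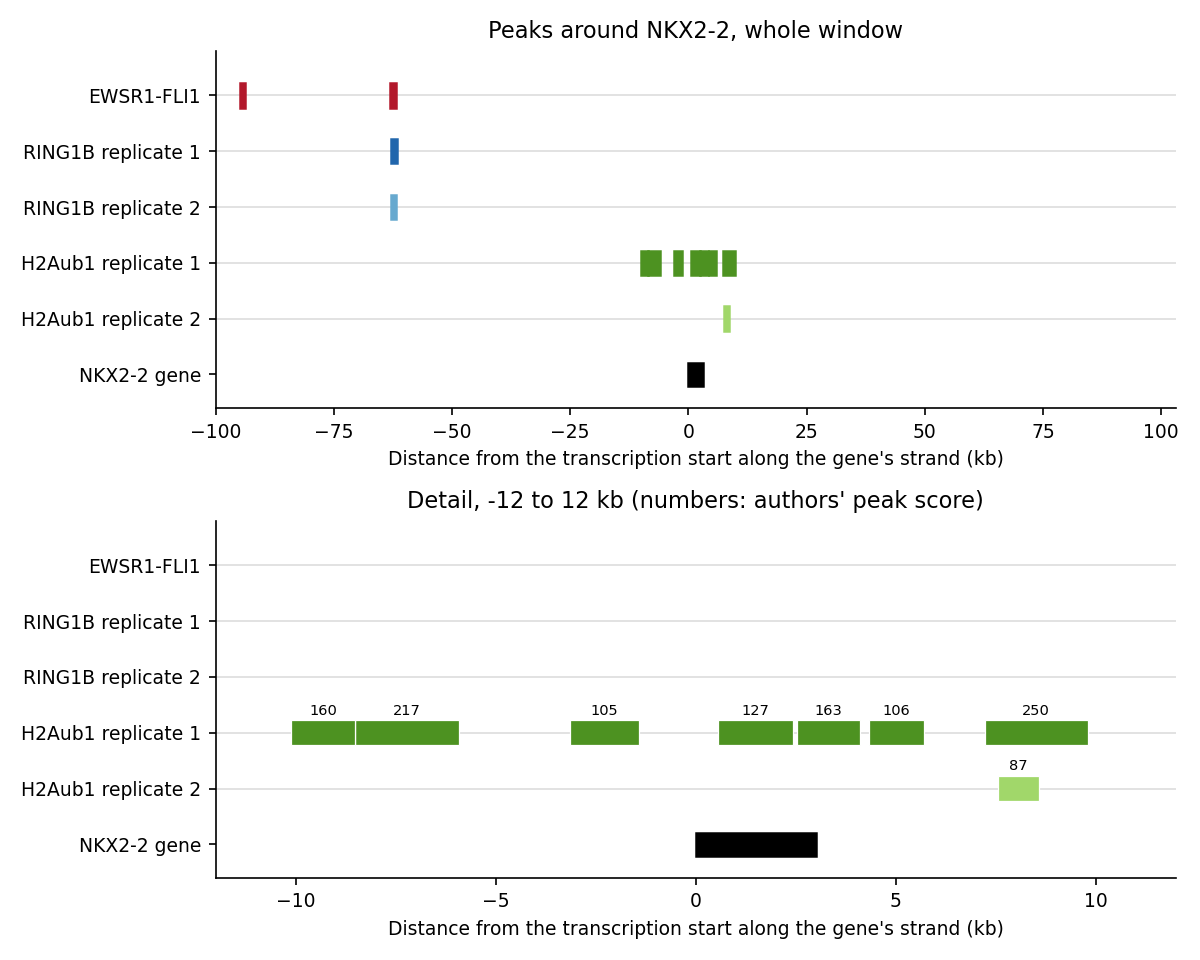
Peaks of the 5 lists around NKX2-2, as distance in kb from the transcription start along the gene's strand (negative is upstream), over the whole window (top) and within 12 kb of the start (bottom, with the authors' peak score above each peak). EWSR1-FLI1 and both RING1B replicates meet 61.9 kb upstream, and the 7 H2Aub1 peaks of replicate 1 lie over and beside the gene.

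The NKX2-2 gene lay in a cluster of H2Aub1 peaks in replicate 1, of which 1 was found again in replicate 2. The 7 peaks of replicate 1 ran from 21484863 to 21504778 on chromosome 20 and covered 13.3 kb of that 19.9 kb stretch (66.9%). Gaps between them were 6 to 2774 bp. Their scores ran from 104.96 to 250.08 with a median of 160.03, and all 7 lay above the list median of 84.67. They covered 77.8% of the gene.

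The hg19 start used here lay in a gap between the peaks. The nearest peak downstream, chr20:21492240-21494114, came within 550 bp of the start, inside the gene, with a score of 126.82, and the nearest upstream, chr20:21496088-21497803, began 1424 bp before the start with a score of 104.96. The widest, chr20:21500578-21503176 (2599 bp), began 5914 bp upstream. In replicate 1 the mark thus stood on either side of this start without a peak at it. The RefSeq starts of GRCh38 were not placed on hg19, so whether a peak covers them was not tested.

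The single peak of H2Aub1 replicate 2 lay past the end of the gene. It spanned chr20:21486082-21487098, 4550 bp beyond the gene, with a score of 87.14 that exceeded 57.5% of its list. It fell wholly inside the highest-scoring of the 7 peaks of replicate 1 (chr20:21484863-21487437, score 250.08). Over the whole lists 26.6% of the replicate 1 peaks and 77.3% of the replicate 2 peaks touched the other replicate, beside 1 of 7 and 1 of 1 here. The H2Aub1 that covers the gene body thus rests on replicate 1 alone. That list is longer, with 26423 peaks against 10268. Cut to its 10268 highest scores, the list of replicate 1 still held all 7 peaks. The part of depth in this difference was not tested. Clusters of this kind were common in replicate 1: 26.3% of its peaks had at least 6 others within 20 kb. No RING1B peak lay in the cluster, the nearest being 51597 bp away.

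At SOX2, 5 EWSR1-FLI1 peaks were found, all of them downstream of the gene, and 1 of them had RING1B in both replicates. None lay within 100 kb of the gene or anywhere in the 1 Mb upstream. In order along the chromosome they began 197110, 338844, 410469, 471255 and 974038 bp from the start. The 4 nearer ones followed each other at gaps of 141, 70.8 and 59.8 kb, and 502 kb without a peak separated them from the last.

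The site with support in both replicates was chr3:181900966-181902434. Its EWSR1-FLI1 peak (181900966 to 181902151, 1186 bp) had the highest score of the 5, at 169.09. The RING1B score was 152.43 in replicate 1 and 218.24 in replicate 2. The score exceeded 74.3% of the EWSR1-FLI1 list (rank 551), 73.1% of RING1B replicate 1 (rank 692) and 89.0% of RING1B replicate 2 (rank 432). The site therefore stood above the median of all 3 lists. Scores of different lists may not share a scale, so no mean over replicates is given.

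The peaks of all 3 lists shared most of their length at this SOX2 site. The RING1B peaks were 1312 and 1465 bp wide with centres 66.5 bp apart, and the shorter lay wholly inside the longer. The EWSR1-FLI1 centre was 77 bp from that of replicate 1 and 143.5 bp from that of replicate 2, both above the list medians, with smaller offsets at 59.0% and 77.9% of the touching peaks. RING1B replicate 1 shared 98.8% of the EWSR1-FLI1 peak and replicate 2 shared 99.7%. The nearest H2Aub1 peak was 178962 bp away.

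The neighbouring site, chr3:181840129-181841182, had RING1B in replicate 1 only. Its EWSR1-FLI1 score was 154.11 and its RING1B score 100.19, and the EWSR1-FLI1 peak lay wholly inside that of RING1B with centres 10 bp apart. Closer centres were found at 8.55% of the EWSR1-FLI1 peaks that touched replicate 1. In replicate 2 the nearest RING1B peak was 59819 bp away, at the site supported by both.

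The other 3 EWSR1-FLI1 peaks at SOX2 touched no RING1B peak and had the lowest scores of the 5. They were chr3:181626821-181627610 with 78.63, chr3:181768555-181769410 with 63.64 and chr3:182403749-182404633 with 72.39, all below the list median of 93.9. The nearest RING1B peak was 181781 bp from the first of these and 70719 bp from the second. The third lay 1309 bp from a RING1B peak of replicate 1 (chr3:182405942-182407107, score 72.63) without touching it, and 320072 bp from the nearest of replicate 2. Lower-scoring EWSR1-FLI1 sites were thus those without RING1B at this locus. At NKX2-2, likewise, the peak without RING1B had the lower score. Over the whole list, 55.3% of the lowest score quartile and 44.2% of the next had no RING1B peak, against 6.53% of the top one. So few peaks cannot be set apart from that trend of the list.

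**Figure D2:**
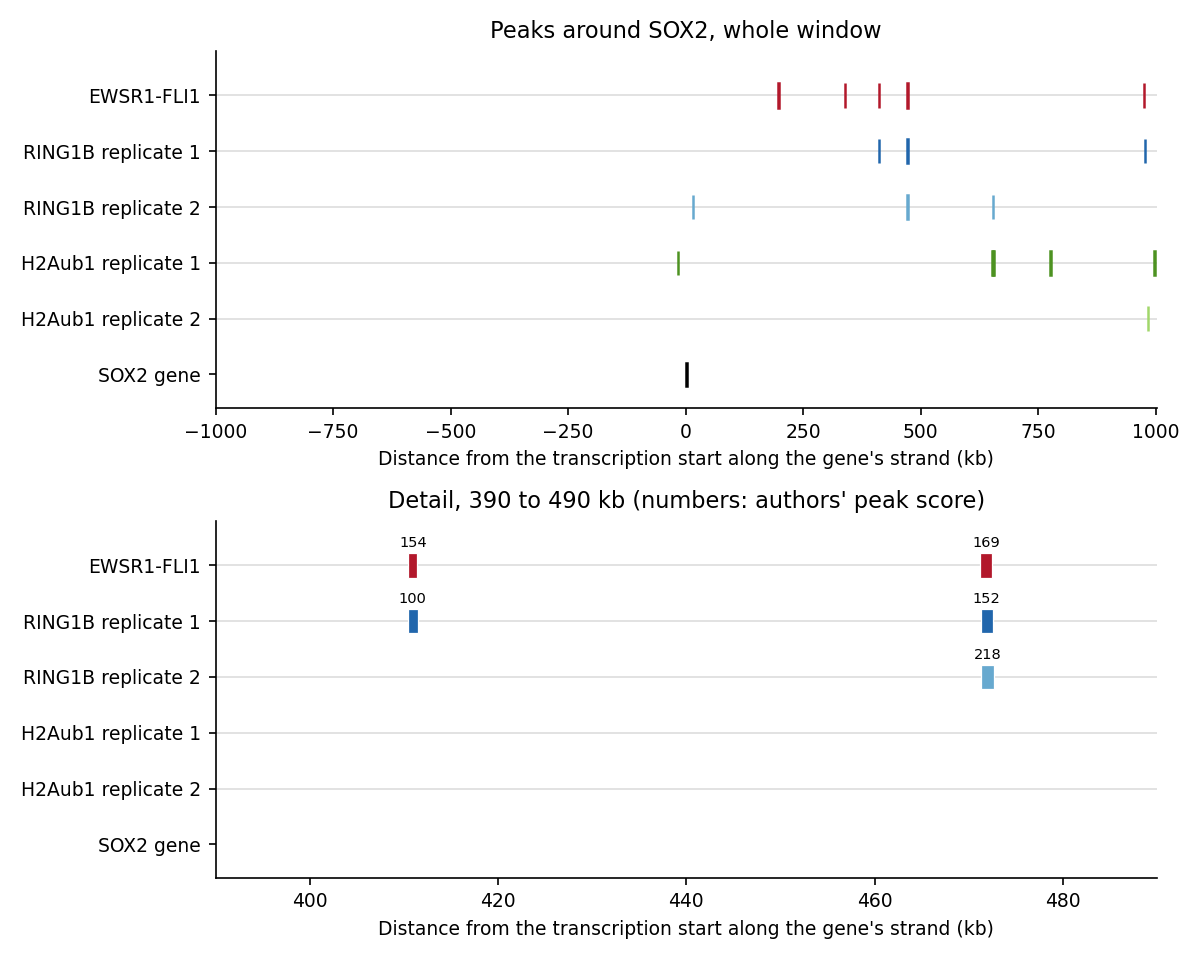
Peaks of the 5 lists around SOX2, as distance in kb from the transcription start along the gene's strand, over the whole window (top, where outlines make narrow peaks look wider than scale) and from 390 to 490 kb (bottom, with the authors' peak score above each peak). The 5 EWSR1-FLI1 peaks all lie downstream, and both RING1B replicates meet EWSR1-FLI1 once, 471 kb from the start.

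RING1B and H2Aub1 peaks without EWSR1-FLI1 at SOX2 were each seen in 1 replicate. The RING1B peak nearest to the gene, chr3:181444321-181445040, lay 12098 bp past its end and was called in replicate 2 alone, with a score of 59.98 that exceeded 23.7% of that list. Another RING1B peak of replicate 2, chr3:182082567-182083677 (score 82.91), bridged a pair of H2Aub1 peaks of replicate 1, sharing 148 bp with chr3:182081113-182082714 (score 106.79) and 357 bp with chr3:182083321-182084613 (score 88.66). It was the single place in either window where RING1B and H2Aub1 peaks touched, 652856 bp from the start of SOX2 and 180 kb from the nearest EWSR1-FLI1 peak.

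Around SOX2 no H2Aub1 peak was found in both replicates: 0 of 5 peaks of replicate 1 and 0 of 1 of replicate 2 touched the other, beside 26.6% and 77.3% over the whole lists. Counts this small cannot be set apart from those shares. Replicate 1 held 5 peaks in the window of 2002.5 kb, with scores from 53.04 to 106.79 and a median of 83.29, near the list median of 84.67. The widest was 1602 bp. The nearest to the gene, chr3:181412546-181413887, ended 15824 bp upstream with a score of 83.29. Replicate 2 held 1 peak, chr3:182412821-182413861 (score 60.75), 980598 bp beyond the gene. In both lists 0 peaks touched the SOX2 gene, against 2 of replicate 1 at NKX2-2. H2Aub1 peaks covered 0.301% of the SOX2 window and 6.56% of the NKX2-2 window in replicate 1, and 0.052% and 0.501% in replicate 2. The SOX2 window is far wider (2002.5 kb against 203 kb), so these shares are not like for like. Within 100 kb of the gene, replicate 1 covered 1342 bp at SOX2, by the peak 15824 bp upstream, and 13317 bp at NKX2-2. With 1 locus each, no test of this difference was made.

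Over both genes, RING1B replicate 1 touched 3 of the 7 EWSR1-FLI1 peaks and replicate 2 touched 2, and 2 of 7 had both. Over all 2145 EWSR1-FLI1 peaks these shares were 54.5%, 54.7% and 41.6%. Counts of 7 peaks chosen by position are too small to be set apart from these shares, and no test was made. An H2Aub1 peak of either replicate touched 0 of the 7, beside 15.1% of the list. Of the 4 RING1B peaks of replicate 1 in the windows, 2 touched replicate 2, and the reverse count was also 2 of 4. Over the whole lists 62.6% of replicate 1 and 40.9% of replicate 2 touched the other replicate.

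The scores of the 7 EWSR1-FLI1 peaks followed their RING1B support, as they did over the list. Without a RING1B peak they were 63.64, 72.39, 78.63 and 127.54, with 1 replicate 154.11, and with both 169.09 and 224.85, so these groups did not overlap. Over the whole list the middle 50% of scores ran from 57.4 to 90.9 for the 694 peaks with none. It ran from 61.9 to 127 for the 559 with 1 and from 97.1 to 349 for the 892 with both. The middle 50% of the peaks with 1 replicate thus overlapped that of each other group, whereas none and both stood apart. Beyond the middle 50%, none and both did overlap: 14.3% of the lowest score quartile had both replicates and 6.53% of the top one had none. The SOX2 site with both replicates lay close to the median of its group (167), and the NKX2-2 site lay above it. In the score quartile of the NKX2-2 site (the top one, 536 peaks) 80.8% of peaks had both replicates and 6.53% had none. In the quartile below, which holds the SOX2 sites at 410 and 471 kb and the other NKX2-2 peak, 45.9% had both and 23.3% had none.

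**Figure D3:**
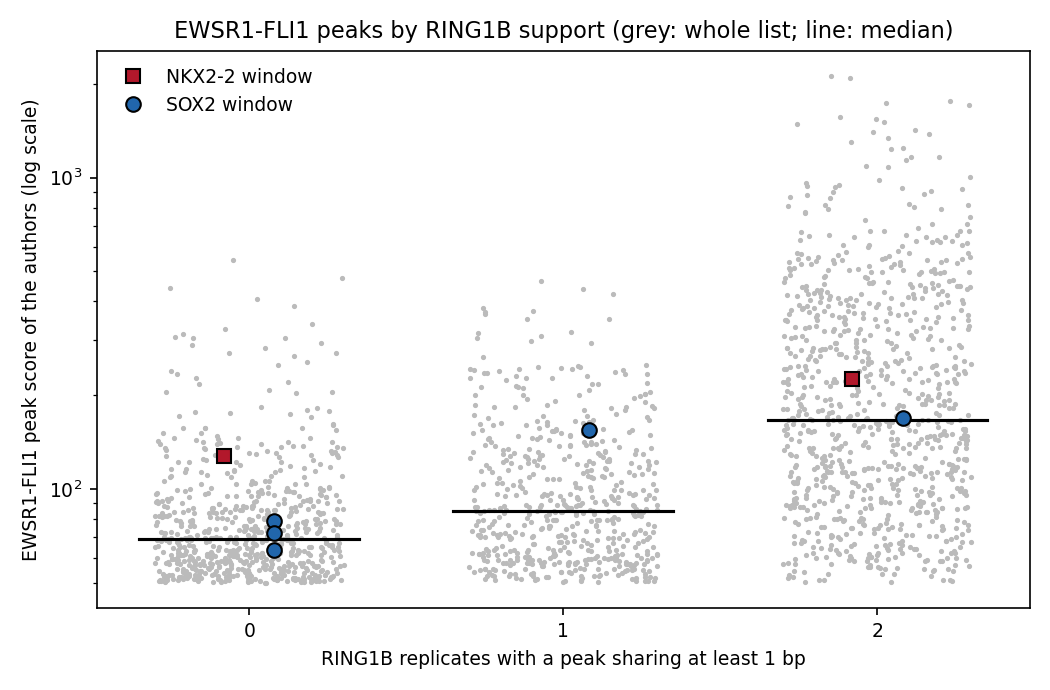
Authors' score of each EWSR1-FLI1 peak (log scale) against the number of RING1B replicates with a peak touching it. Grey points are all 2145 peaks, spread sideways for visibility, lines are group medians (68.9, 85.0 and 167), and the 2 NKX2-2 and 5 SOX2 peaks are marked. The marked peaks with both replicates lie above those with 1 or none.

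The presence or absence of the 4 other lists was used to find the EWSR1-FLI1 peaks most like these. The shared sites at NKX2-2 and SOX2 have RING1B in both replicates and no H2Aub1, a pattern held by 768 EWSR1-FLI1 peaks (35.8% of the list). Within that class their scores exceeded 59.0% and 49.3% of the peaks, so both are middling members of it. The SOX2 site at 410 kb, with RING1B replicate 1 alone, is 1 of 242 such peaks (11.3%), and its score exceeded 82.6% of them. The remaining 4 belong to the 586 peaks (27.3%) that touch no other list.

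Most EWSR1-FLI1 peaks at both genes had another nearby. At least 1 other EWSR1-FLI1 peak lay within 100 kb of both NKX2-2 peaks and of the 3 SOX2 peaks from 339 to 471 kb, 5 of 7 in all, beside 36.8% of the list. The SOX2 site at 410 kb had 2, and the SOX2 peaks at 197 and 974 kb had 0. The SOX2 peaks each had 4 others within 1 Mb, which 31.1% of the list reached or passed, and the NKX2-2 peaks had 3, which 47.5% did. The rule fixes part of these counts. Both NKX2-2 peaks share a 100 kb flank and all SOX2 peaks share a 1 Mb flank, so each counts the others. Counts within 100 kb at SOX2 are not fixed in this way, but neighbours there count each other. The counts are therefore no measure of clustering beside the shares of the list.

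Within each list, peaks at NKX2-2 ranked higher than most of those at SOX2. All 12 peaks at NKX2-2 had scores above the median of their list. These are not 12 separate places. The 7 H2Aub1 peaks of replicate 1 form a single cluster that also holds the peak of replicate 2. EWSR1-FLI1 and both RING1B replicates share a single site. At SOX2 this held for 2 of 5 EWSR1-FLI1 peaks, 2 of 3 RING1B peaks in either replicate, 2 of 5 H2Aub1 peaks of replicate 1 and 0 of 1 of replicate 2. The SOX2 window spans 2002.5 kb and that of NKX2-2 203 kb, so it also takes in peaks far from the gene.

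**Figure D4:**
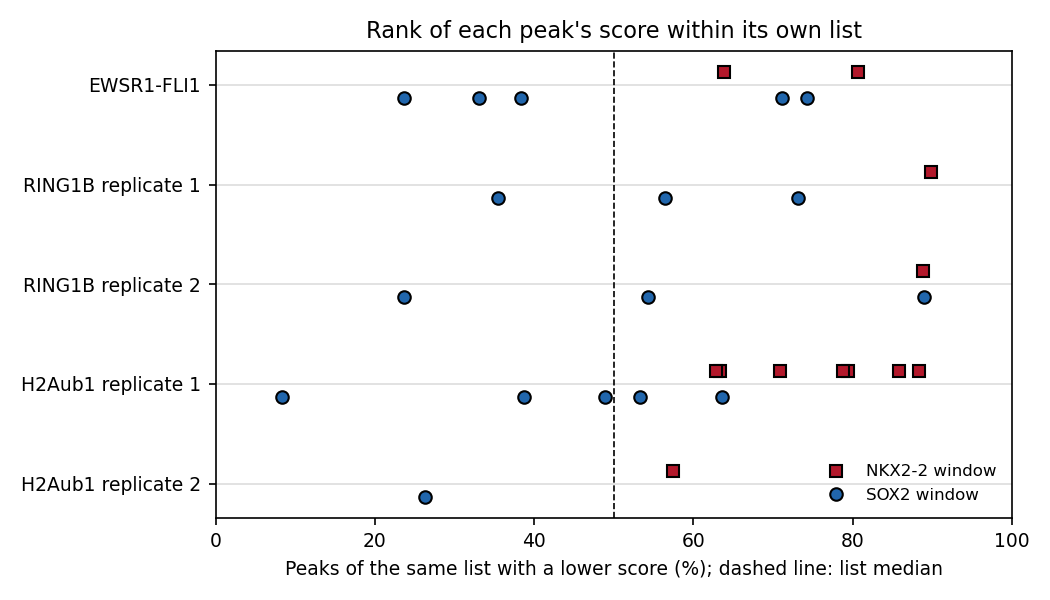
Share of each list with a lower score (%), for every peak in the NKX2-2 (squares) and SOX2 (circles) windows. All NKX2-2 peaks lie right of the list median, and the RING1B peaks at the shared sites reach 89.8% and 88.9% at NKX2-2 and 73.1% and 89.0% at SOX2.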

How the data were processed

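ChIP-seq peak lists of RING1B (2 replicates), H2Aub1 (2 replicates) and EWSR1-FLI1 (1 sample) from A673 cells were used. Bowtie and the hg19 build are named in the submitters' processing notes, as is mm9 for the RING1B and H2Aub1 samples, with no role stated. Peak names begin with MACS, per the files, with 1 list per sample. Tool versions, filters and any use of input are not given in the sources used here. Each peak has a score of unstated scale in the deposited lists, lowest near 50 in every list, and it served only for ranks and descriptions inside 1 list. Read depth is unknown, so the precision of a missing peak cannot be given. Nothing says that replicates came from separate cultures.

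Gene coordinates and windows came from the rule stated in the report. Peaks sharing at least 1 bp counted as touching. Distances run from the nearest edge of a peak to the transcription start (strand from RefSeq), or to the gene, and are 0 where they touch. Promoter sequences are RefSeq, GRCh38.p14, with 2 windows for NKX2-2 and 1 for SOX2. Overlap code was tested on simulated data (Python 3.11.15, pandas 2.3.3). The members, their windows and the alternatives were chosen with earlier results of these data known, and no hypothesis test was planned or run. Named were every EWSR1-FLI1 and RING1B peak, and H2Aub1 peaks by count, range, the nearest and the widest. Other H2Aub1 peaks were named after their overlaps were seen.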

Additional observations from a re-analysis of the deposited data

How the results depend on the processing

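Counts at the 2 genes changed with the window and with the replicates asked for. EWSR1-FLI1 peaks at NKX2-2 numbered 0 with 50 kb and 4 with 1 Mb on each side, against 2. At SOX2 they numbered 0 with 100 kb on each side and 2 in the highest-scoring 50% of the list, against 5. Leaving out a RING1B replicate gave 1 to 2 supported EWSR1-FLI1 peaks at SOX2 (2 without replicate 2), and 3 RING1B peaks with either list alone in place of 1 region. Leaving out an H2Aub1 replicate gave 1 to 7 peaks at NKX2-2 in place of 1 region and 1 to 5 at SOX2 in place of 0 (the higher values without replicate 2). Measured to the peak centre, the supported EWSR1-FLI1 peak lay at -62476.5 bp from the start of NKX2-2 and at 471847.5 bp from that of SOX2. Asking for 50% of the shorter peak, or cutting the RING1B lists or (added after the data were seen) the H2Aub1 lists to equal length, changed none of the counts it was applied to. No paired analysis was possible because no result came from a test. A peak list without read counts cannot show whether a missing peak reflects depth.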

Other observations

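Beyond the 100 kb taken for NKX2-2, the 1 Mb on either side held 2 further EWSR1-FLI1 peaks, both downstream of the gene. The peak at chr20:20717510-20718502 had a score of 91.3, lay 776 kb from the start and touched a RING1B peak of both replicates. The peak at chr20:20732931-20734032 had a score of 50.57, lay 761 kb away and touched none. Both were looked up after the wider window had been counted. They are closer to each other than to NKX2-2.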
